A study of Mus musculus with 12 samples.

Results

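The cytosolic nucleic acid sensors described here are 8 genes, taken by symbol from a table of 23636 symbols, with earlier results of these data known: DDX58, IFIH1, DHX58, DDX60, ZBP1, EIF2AK2, ADAR and MAVS. All 8 were in the table and all 8 passed the filter on low values. RNA was sequenced from CT26, an established mouse colon carcinoma cell line, in 12 libraries that form 4 groups of 3 biological replicates. The groups were no treatment, CX3CL1 (fractalkine, the chemokine ligand of the receptor CX3CR1), IFN-γ (type II interferon) and CX3CL1+IFN-γ. The labels give the treatments by name, and the study's methods and legends give 2 µg/ml of recombinant CX3CL1, 100 ng/ml of IFN-γ and 8 hours. The labels and the legend of the paper's heatmap name IFN-γ without TNF-α. The paper's account in its results of the treatment with IFN-γ and CX3CL1 also names TNF-α. Whether TNF-α was present in the groups with IFN-γ therefore could not be settled here. One cell line was used, so the replicates describe CT26 cells and no other tumour.

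RIG-I-like receptors are helicases that survey the cytosol for viral or misplaced double-stranded RNA. RIG-I (DDX58) and MDA5 (IFIH1) carry signalling domains that engage MAVS, an adaptor on mitochondria, and the pathway ends in the induction of type I interferon. Many genes of this system are themselves interferon-stimulated, and they also serve as effectors: PKR (EIF2AK2) halts translation, ADAR1 (ADAR) edits adenosines in double-stranded RNA to inosines, and ZBP1 links Z-form nucleic acids to cell death.

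Levels are given in TPM, in which gene length and library total are already divided out, so levels of different genes can be set side by side. TPM carry no read depth, and the precision comes from the spread between the 3 libraries of a group. In bulk RNA of this kind, fewer cells that express a gene and less RNA per cell cannot be told apart. Differences were tested as log2(TPM + 1) with limma in 11878 genes, those averaging 0.2 TPM or more across the libraries, with Benjamini-Hochberg adjustment, and a gene was called at an adjusted p under 0.05. On this scale, fold changes of weakly expressed genes come out too small. With 3 libraries a side, the smallest p of an exact permutation test (two-sided) is 0.1, so each call leans on the spread that limma pools across genes, and the p-values measure only the spread between these cultures. The comparisons share groups: no treatment serves as control for each agent and for both together.

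Replicate libraries correlated at 0.984 to 0.996 (Pearson, across genes), and CX3CL1 replicate 2 was the least like its group. Of 8 epithelial markers, 6 stayed under 1 TPM in every library and EPCAM was listed at 0 in all 12, although KRT18 and KRT20 were present at 18.4 to 53.6 and 6.44 to 16.8 TPM. The mesenchymal marker VIM ran from 1684 to 4831 TPM. Leukocyte markers summed to at most 1.94 TPM in any library, and 7 of 8 stayed under 1 TPM throughout. KRT18 was called lower with IFN-γ (log2 fold change -0.68, adjusted p = 0.0346) and with CX3CL1+IFN-γ (-1.02, adjusted p = 0.00171), and VIM was called lower with CX3CL1+IFN-γ (-0.86, adjusted p = 0.0186). Their part in the results on the sensor genes was not tested.

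The genes lie at separate loci of GRCm38, the assembly behind mm10, in GENCODE M21. DDX58 is at chr4:40203773-40239828 on the minus strand, DHX58 at chr11:100694884-100704271 (minus), EIF2AK2 at chr17:78852564-78882573 (minus), ADAR at chr3:89715022-89753446 (plus) and DDX60 at chr8:61928087-62038244 (plus). Chromosome 2 holds IFIH1 at chr2:62595798-62646255 (minus), MAVS at chr2:131234063-131248025 (plus) and ZBP1 at chr2:173206612-173218923 (minus). No annotated gene overlapped any of them on the same strand. On the opposite strand, ADAR overlaps Chrnb2, DHX58 overlaps Dhx58os, and EIF2AK2 overlaps n-R5s29 and Gm26637.

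Interferon-stimulated genes often carry a response element of paired GAAA repeats near the start site. RefSeq promoter windows (GRCm38.p6, 250 bases before to 50 after an annotated start) were found for 6 of the 8 genes, all but DHX58 and ZBP1, and were searched on both strands for the core GAAA, any 2 bases, GAAA. These 6 genes had 8 windows. The core was present for 4 genes (DDX58, IFIH1, DDX60 and EIF2AK2). Of all 32851 windows 3.44% held it, which is a share of windows and not of genes. The stretches below give each match, with the core in capitals and up to 10 bases on each side, 5′ to 3′ along the strand of the gene. The GAAA letters were fixed by the search, and the likeness of the other bases was not measured. In DDX58 the core reads on the opposite strand, so the capitals show its complement.
IFIH1: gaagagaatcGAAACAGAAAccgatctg
DDX58: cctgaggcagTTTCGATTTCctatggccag
DDX60, outer match: gtgatgaatgGAAACCGAAActtaaagctt
DDX60, inner match: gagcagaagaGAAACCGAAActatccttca
EIF2AK2: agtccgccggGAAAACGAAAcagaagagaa

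Counted from the start site, the core lay at bases 33 to 42 in IFIH1 (stretch at chr2:62646206-62646233, minus), 3 to 12 in DDX58 (chr4:40239804-40239833, minus) and 19 to 28 in EIF2AK2 (chr17:78882535-78882564, minus). DDX60 had a pair of identical cores, at bases -53 to -44 (chr8:61928024-61928053, plus) and -19 to -10 (chr8:61928058-61928087, plus). A second core, TTCNNNGAA, which STAT dimers recognise, was in 8.3% of all windows and matched in EIF2AK2 (TTCCCAGAA, bases -178 to -170, at chr17:78882742-78882750) and in 1 of 3 ADAR windows (TTCAAGGAA, bases 23 to 31, at chr3:89730740-89730748). No match of one core overlapped a match of the other. Neither core was found in the MAVS window or in the remaining ADAR windows, and no ADAR window held the GAAA core. A match is a description of the letters in these windows and was not tested for binding.

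Untreated CT26 cells held transcripts of all 8 genes. EIF2AK2 stood highest at 84.4 ± 12.6 TPM (mean ± SD, n = 3), followed by MAVS at 70.8 ± 4.10, ADAR at 34.2 ± 2.39 and DDX58 at 23.6 ± 4.81. The other 4 formed a low tier: IFIH1 at 10.5 ± 2.97, ZBP1 at 6.95 ± 4.32, DHX58 at 6.41 ± 1.72 and DDX60 at 5.01 ± 2.07. Neighbours in this order were separated, with no overlap of their libraries, at 3 of 7 steps: MAVS above ADAR, ADAR above DDX58, and DDX58 above IFIH1. Within the low tier, and between EIF2AK2 and MAVS, neighbouring genes overlapped.

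With IFN-γ, 7 of the 8 genes rose and MAVS was not called, where 5.91% of the 11878 genes tested were called higher. The same 7 had IFN-γ libraries that were all above the untreated ones, a pattern held by 20.6% of genes. The median log2 fold change of the 8 genes was 2.24, against 0.03 over all genes tested. The called rises in mean TPM ranged widely, from 2.12-fold for EIF2AK2 to 47.4-fold for ZBP1.

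Among the receptors, DDX58, which encodes RIG-I, the sensor of short and triphosphate-ended RNA, measured 28.5, 18.9 and 23.3 TPM in untreated replicates 1, 2 and 3. It measured 85.4, 104 and 119 TPM with IFN-γ. Its lowest IFN-γ library lay well above its highest untreated one, and the log2 fold change was 2.09 (SE 0.16, adjusted p = 6.3e-06). IFIH1, the MDA5 gene, whose product binds long double-stranded RNA, went from 13.4, 7.50 and 10.5 TPM to 45.0, 57.0 and 76.7 TPM. Here too the groups were apart (log2 fold change 2.40, SE 0.23, adjusted p = 2.6e-05). DHX58 encodes LGP2, a receptor without the signalling domains that modulates the other receptors. It measured 7.74, 4.46 and 7.04 TPM without treatment and 30.4, 44.0 and 51.4 TPM with IFN-γ, which gave the third receptor a rise of 2.53 (SE 0.27, adjusted p = 5.2e-05) on the log2 scale. DDX60, a helicase related to this family, moved from 7.21, 3.11 and 4.71 TPM to 29.7, 31.0 and 44.0 TPM, a log2 fold change of 2.61 (SE 0.24, adjusted p = 1.5e-05). The 4 helicases thus rose by 2.09 to 2.61 on the log2 scale, with 95% intervals that all overlapped.

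ZBP1, the sensor of Z-form RNA and DNA, stood apart in size. It measured 11.5, 2.93 and 6.41 TPM in untreated cells and 315, 284 and 390.2 TPM with IFN-γ. Its log2 fold change of 5.52 (95% interval 4.77 to 6.27, adjusted p = 2.2e-06) was the second largest rise among the 11878 genes tested. ZBP1 went from 6th of the 8 genes in untreated cells to 1st with IFN-γ, with no overlap with EIF2AK2 below it.

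EIF2AK2 and ADAR had the smallest of the called estimates. EIF2AK2, the gene of PKR, a kinase that phosphorylates the translation factor eIF2α when bound to double-stranded RNA, measured 93.1, 70.0 and 90.2 TPM untreated and 144, 185 and 207 TPM with IFN-γ. The groups did not overlap, and the log2 fold change was 1.07 (SE 0.15, adjusted p = 6.3e-04). ADAR moved from 36.0, 31.5 and 35.0 TPM to 76.0, 81.7 and 87.8 TPM, a log2 fold change of 1.24 (SE 0.12, adjusted p = 3.2e-05). ADAR makes a long interferon-inducible and a short constitutive form from different starts, and values per gene add these together.

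**Figure D1:**
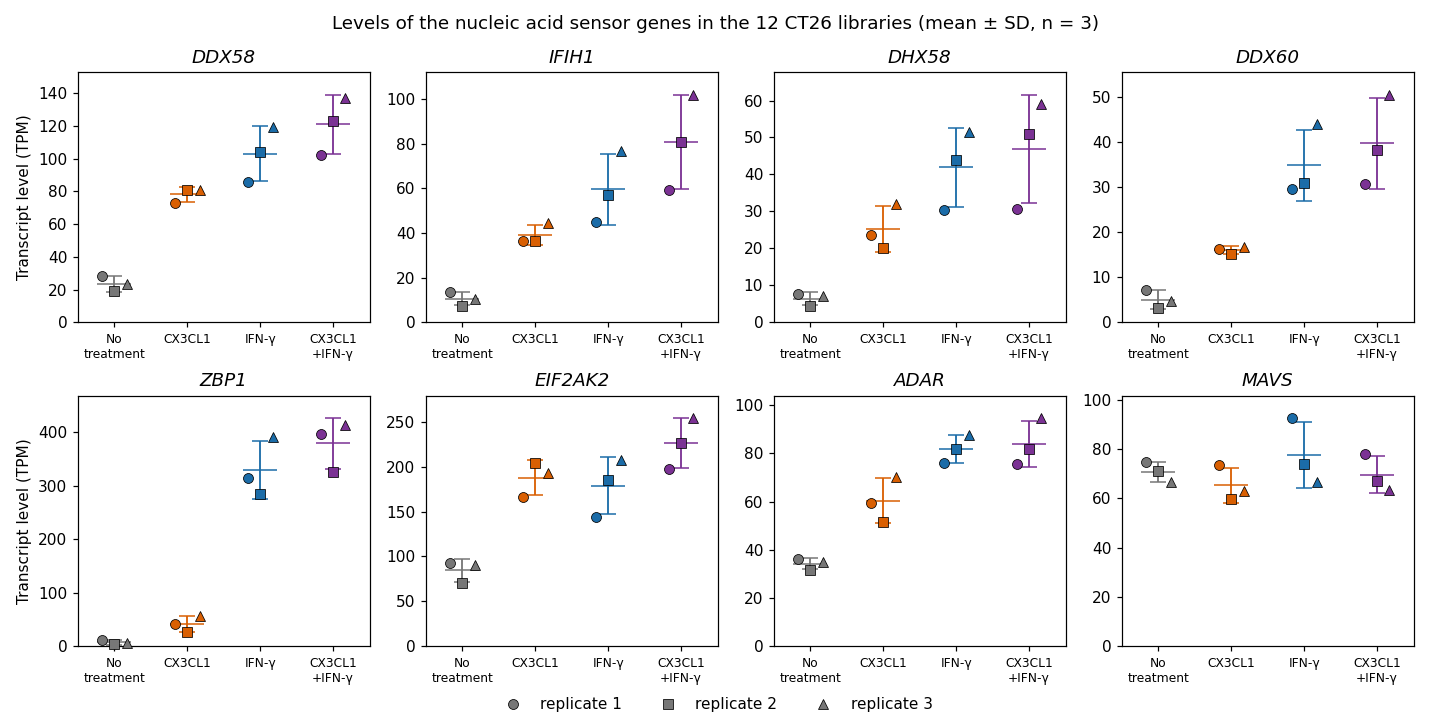
Transcript level in TPM (vertical axis, from 0, a scale of its own for each gene) in each of the 12 libraries, by group along the horizontal axis. Symbols mark replicates 1, 2 and 3, and the bar and whiskers are the mean ± SD (n = 3). In 7 panels all treated libraries lie above the untreated ones, and in the MAVS panel the 4 groups overlap between 59.7 and 92.5 TPM.

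CX3CL1 alone raised the same number of genes. Of the 8, 7 were called higher, where 1.78% of all genes tested were, and these 7 had all CX3CL1 libraries above all untreated ones, as did 5.50% of genes. The median log2 fold change of the 8 genes was 1.63, against -0.02 over all genes tested. MAVS was again the gene without a call.

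DDX58 measured 72.6, 80.6 and 81.0 TPM with CX3CL1, a narrow group far above the untreated libraries. Its log2 fold change of 1.70 (SE 0.16, adjusted p = 1.3e-04) had the 10th smallest p-value of all genes tested. IFIH1 measured 36.5, 36.6 and 44.3 TPM (log2 fold change 1.83, SE 0.23, adjusted p = 0.00103), and DHX58 measured 23.6, 20.0 and 32.1 TPM (1.83, SE 0.27, adjusted p = 0.00248). DDX60 was the tightest of the genes, at 16.3, 15.1 and 16.8 TPM, and rose by 1.56 (SE 0.24, adjusted p = 0.00295). Each of these helicase genes thus stood 3.21 to 3.93 times its untreated mean.

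ZBP1 had the largest rise of the 8 with CX3CL1 as well. Its libraries held 40.6, 26.4 and 57.0 TPM, a 5.95-fold rise in the mean and a log2 fold change of 2.50 (95% interval 1.75 to 3.25, adjusted p = 0.00174). The lowest of these libraries was above the highest untreated one. EIF2AK2 measured 166, 204 and 193 TPM (log2 fold change 1.15, SE 0.15, adjusted p = 0.00134) and remained the most abundant of the 8 genes. ADAR measured 59.5, 51.4 and 70.1 TPM, the smallest called rise, at 0.79 (SE 0.12, adjusted p = 0.00323).

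**Figure D2:**
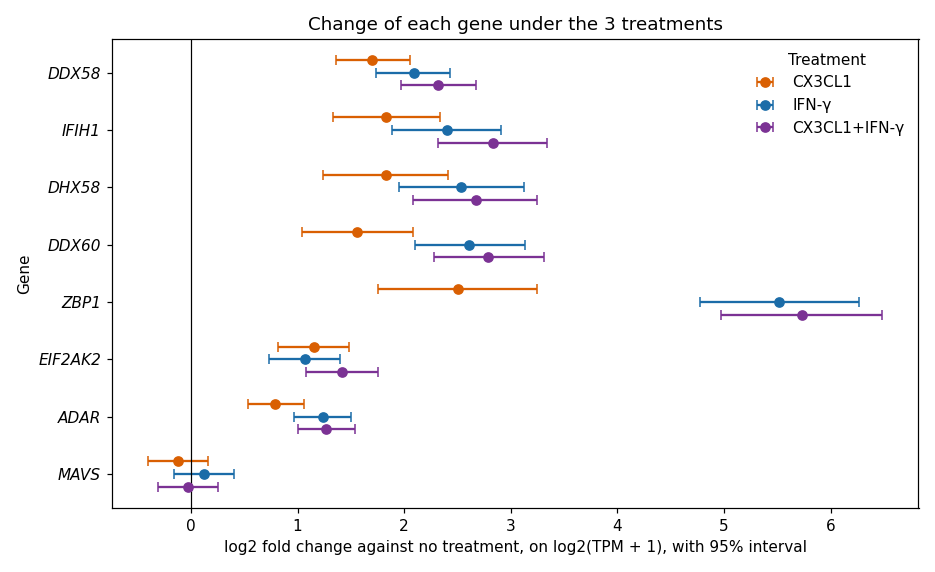
Log2 fold change against no treatment on the log2(TPM + 1) scale (horizontal axis) for each gene (vertical axis) under CX3CL1, IFN-γ and CX3CL1+IFN-γ, with 95% intervals from limma. ZBP1 lies at 2.50 with CX3CL1 and at 5.52 and 5.73 in the groups with IFN-γ, EIF2AK2 lies between 1.07 and 1.42 in all 3, and MAVS lies across 0.

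Set side by side, the groups took the order no treatment, CX3CL1, IFN-γ, CX3CL1+IFN-γ by mean in 6 genes: DDX58, IFIH1, DHX58, DDX60, ZBP1 and ADAR. The step from CX3CL1 to IFN-γ was free of overlap in all of these but DHX58. The CX3CL1 mean was 75.9% of the IFN-γ mean for DDX58, 73.7% for ADAR, 65.7% for IFIH1, 60.2% for DHX58 and 46.1% for DDX60. ZBP1 was the low extreme at 12.5%. EIF2AK2 was the high extreme at 105%, with CX3CL1 and IFN-γ libraries that overlapped. These are descriptions of means, and CX3CL1 and IFN-γ were not tested against each other.

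Adding IFN-γ to CX3CL1 raised 5 of the 8 genes, where 3.76% of all genes were called higher. The 5 were ZBP1, DDX60, IFIH1, DDX58 and ADAR. They were also the genes whose libraries lay wholly above the CX3CL1 ones, a pattern seen in 14.0% of genes. ZBP1 reached 397, 326 and 414 TPM with both agents, a 9.17-fold higher mean than with CX3CL1 (log2 fold change 3.23, adjusted p = 2.9e-04). DDX60 reached 30.7, 38.2 and 50.6 TPM (1.23, adjusted p = 0.00985), and IFIH1 reached 59.4, 80.9 and 102 TPM (1.00, adjusted p = 0.0289). DDX58, at 102, 123 and 137 TPM, and ADAR, at 75.8, 81.9 and 94.6 TPM, passed narrowly, with log2 fold changes of 0.61 (adjusted p = 0.0477) and 0.48 (adjusted p = 0.0455).

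DHX58 measured 30.6, 51.0 and 59.1 TPM with both agents, and its lowest library overlapped the CX3CL1 group (log2 fold change 0.84, 95% interval 0.26 to 1.43, adjusted p = 0.106). EIF2AK2 measured 198, 227 and 254 TPM and also overlapped (0.27, interval -0.07 to 0.60, adjusted p = 0.412). Only the ZBP1 call held under all 20 alternative settings and left-out libraries. The count was 1 without CX3CL1+IFN-γ replicate 3 and 2 without CX3CL1 replicate 1, CX3CL1 replicate 2 or CX3CL1+IFN-γ replicate 2. It was 3 without CX3CL1 replicate 3, untreated replicate 3 or IFN-γ replicate 2. A fit blocked on the replicate number called 6 genes, DHX58 among them (adjusted p = 0.0339), where it called 8.71% of all genes higher. DHX58 was also called without CX3CL1+IFN-γ replicate 1 (adjusted p = 0.0383). Against no treatment, CX3CL1+IFN-γ raised 7 of the 8 genes, by 1.27 (ADAR) to 5.73 (ZBP1) on the log2 scale, where 8.21% of genes were called higher. The same 7 had all libraries with both agents above all untreated ones, as did 18.6% of genes.

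Adding CX3CL1 to IFN-γ gave no call. None of the 8 genes passed (limma adjusted p from 0.975 to 0.99), where 0.345% of all genes were called higher, and all 8 overlapped between the groups, where 8.54% of genes lay wholly higher. Paired by replicate number, DDX58, IFIH1, DHX58, DDX60, ZBP1 and EIF2AK2 had more TPM with both agents in 3 of 3 pairs, as did 25.0% of all genes tested. ADAR did in 2 of 3, and MAVS had less in 3 of 3, as did 25.6% of genes. The fit with the replicate block called none of the 8 either (adjusted p from 0.492 to 0.907). In the fit without it, EIF2AK2 alone had an unadjusted p under 0.05 (log2 fold change 0.35, 95% interval 0.01 to 0.68). The estimates for the other 6 genes that rose with each agent ran from 0.04 for ADAR to 0.43 for IFIH1. The interval for ZBP1, -0.55 to 0.96, left room for a change in either direction, while that for ADAR, -0.23 to 0.30, was narrow. Their median over the 8 genes was 0.19, against a median of -0.00 over all genes tested.

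The difference between these CX3CL1 effects, with IFN-γ and without it, was tested as an interaction. It was negative for all 8 genes, and the 95% interval excluded 0 for 7 of them, but none was called after adjustment, and none of the 11878 genes tested was called in either direction (0%). At an unadjusted p under 0.05 the 7 genes were negative, where 1.75% of all genes were. DDX58 had the 3rd smallest p-value of all genes (interaction -1.47 on the log2 scale, interval -1.96 to -0.98, adjusted p = 0.0792). ZBP1 had the largest estimate of the 8 (-2.30, interval -3.36 to -1.23, adjusted p = 0.202), followed by DHX58 (-1.69, adjusted p = 0.247), IFIH1 (-1.40, adjusted p = 0.31) and DDX60 (-1.38, adjusted p = 0.35). Among these 7 genes the estimates nearest 0 were -0.80 for EIF2AK2 (adjusted p = 0.454) and -0.76 for ADAR (adjusted p = 0.268). Without untreated replicate 1, DDX58 (adjusted p = 0.0233) and ZBP1 (adjusted p = 0.0382) were called, among 11 genes of the whole table called negative and 0 called positive.

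**Figure D3:**
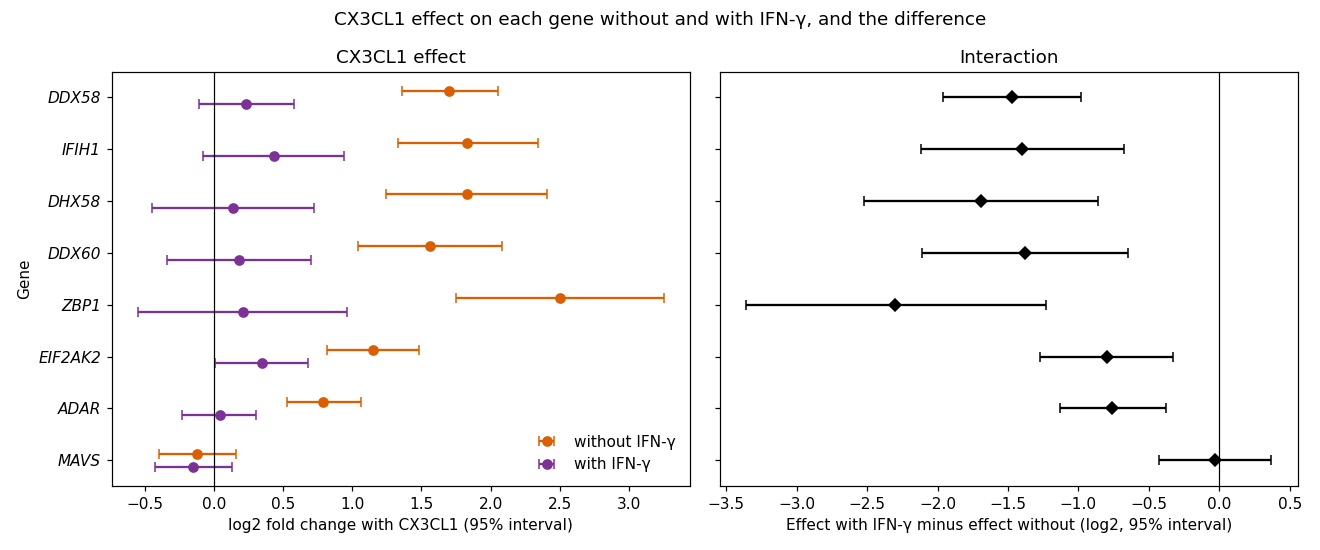
Left, log2 fold change with CX3CL1 without IFN-γ and with IFN-γ (horizontal axis) for each gene (vertical axis), with 95% intervals. Right, the difference, effect with IFN-γ minus effect without, with its 95% interval: it lies below 0 for 7 genes, from -0.76 for ADAR to -2.30 for ZBP1, and at -0.03 for MAVS.

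An interaction on the log2 scale tests whether folds multiply, and on the TPM scale the same means read differently. For ZBP1, CX3CL1 alone added 34.4 TPM to the untreated mean and IFN-γ alone added 323 TPM, and both together added 372 TPM, 104% of the sum. The level at which the separate rises would simply add, 364 TPM, lay inside the range of the libraries with both agents (326 to 414 TPM). The same held for IFIH1, with 90.4% of the sum and 88.2 TPM against libraries of 59.4 to 102, and for DDX60, with 85.1% and 45.9 TPM against 30.7 to 50.6. DHX58 reached 74.4% of the sum, and its additive level of 60.8 TPM was just above its highest library of 59.1. For DDX58 (72.7%), EIF2AK2 (71.8%) and ADAR (67.7%), the additive levels of 157, 282 and 108 TPM were above every library with both agents, the highest being 137, 254 and 94.6 TPM. These sums of means carry no test.

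**Figure D4:**
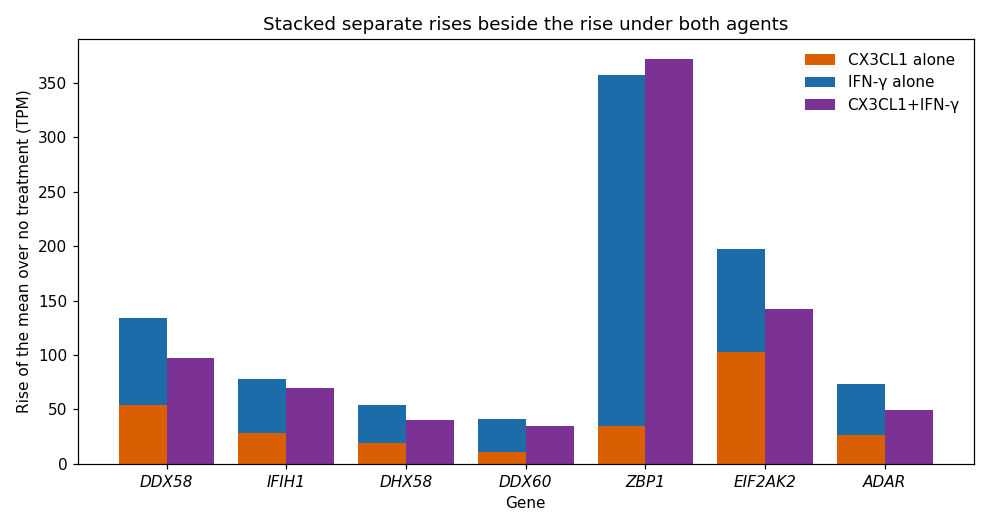
Rise of the mean over no treatment in TPM (vertical axis, from 0) for the 7 genes called with each agent. The left bar of each pair stacks the rise with CX3CL1 alone and with IFN-γ alone, and the right bar is the rise with CX3CL1+IFN-γ, without error bars. The right bar is level with or above the stack for ZBP1 (372 against 357 TPM) and below it for the other 6 genes.

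MAVS, the adaptor through which RIG-I and MDA5 signal, was called in no comparison. It measured 74.7, 71.1 and 66.6 TPM untreated, 73.4, 59.7 and 62.8 TPM with CX3CL1, 92.5, 74.1 and 66.5 TPM with IFN-γ, and 78.1, 67.2 and 63.5 TPM with both. All 4 groups overlapped. The log2 fold change was 0.12 with IFN-γ (95% interval -0.16 to 0.40, adjusted p = 0.647), -0.12 with CX3CL1 (-0.40 to 0.16, adjusted p = 1) and -0.03 with both (-0.31 to 0.25, adjusted p = 0.926). A rise as large as the smallest one called against no treatment, 0.79 for ADAR with CX3CL1, lay outside each of these intervals. In each group, replicate 1 held the highest MAVS value.

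Replicates of a group differed in a shared way for the other genes. Untreated replicate 1 was the highest of its group for all 8 genes, and untreated replicate 2 was the lowest for 7. Replicate 3 was the highest for 7 of the 8 genes with IFN-γ and with CX3CL1+IFN-γ, MAVS being the exception. In both of these groups replicate 1 was the lowest for 6 genes. With CX3CL1, replicate 3 was the highest for 6 genes and replicate 2 the lowest for 5. The share of all genes tested with such ranks was not computed. Relative to its mean, the spread was widest in untreated ZBP1 (coefficient of variation 62.1%), with 11.5 TPM in replicate 1 and 2.93 TPM in replicate 2. The ZBP1 rise ran from 5.09 to 5.92 with IFN-γ and from 2.07 to 2.91 with CX3CL1 on the log2 scale when each library was left out in turn, and all 7 calls held each time in both comparisons.

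Likeness between genes was measured over the 12 libraries as the root mean square difference of log2(TPM + 1) after centring each gene on its own mean over these libraries. The values were not scaled, so a smaller value is a closer match in the size of the changes as well as in their order. The libraries share their groups, and the values are descriptions. Within the set, IFIH1 and DHX58 were the closest pair (0.16), and DDX58 and DDX60 were both nearest to IFIH1 (0.23 and 0.20). EIF2AK2 and ADAR were each other's nearest (0.24). ZBP1 was far from every other member, with DDX60 the nearest at 1.30, and MAVS was nearest to ADAR at 0.54.

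Outside the set, the genes most like DDX58 were OAS3 (0.07) and SP100 (0.11), against a median of 0.93 over all genes tested. TRIM30A was most like IFIH1 (0.06) and was also close to DHX58 (0.16), against a median of 1.12 for both. HERC6 (0.11) and DTX3L (0.14) were most like DDX60. ZBP1 was closest to the guanylate-binding protein genes GBP3 (0.27) and GBP2 (0.30), against a median of 2.39. TRIM25 (0.10) and IRF9 (0.14) were most like ADAR, and LGALS8 (0.14) and TOR1AIP1 (0.15) most like EIF2AK2. For MAVS the closest were ARVCF (0.04) and ADCY6 (0.05), against a median of 0.22.

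The partners of these sensors were counted in lists, and in all genes tested the shares called higher were those given above: 5.91% with IFN-γ, 1.78% with CX3CL1, 8.21% with both against no treatment, 3.76% with both against CX3CL1 and 0.345% with both against IFN-γ. Of 19 signalling partners of the RIG-I-like receptors, 18 were tested, and 4 rose with IFN-γ, 2 with CX3CL1, 5 with both against no treatment, 1 (IRF7) with both against CX3CL1 and none with both against IFN-γ. None fell. Their median log2 fold change was 0.11 with IFN-γ and 0.11 with CX3CL1. IRF7, the transcription factor that amplifies type I interferon, rose most with IFN-γ (3.84, adjusted p = 5.2e-05), from 59.2 ± 47.2 to 696 ± 59.9 TPM. TRIM25, a ubiquitin ligase that activates RIG-I, rose with IFN-γ (1.35, adjusted p = 6.7e-05) and with CX3CL1 (0.91, adjusted p = 0.00455). RNF135, another ligase of RIG-I, and the adaptor TRAF2 rose with IFN-γ by 0.77 (adjusted p = 0.0164) and 0.72 (adjusted p = 0.0075). IKBKE, a kinase upstream of interferon regulatory factors, rose with CX3CL1 by 1.05 (adjusted p = 0.0361). It was not called with IFN-γ (0.76, adjusted p = 0.0689) and rose with both against no treatment by 1.79 (adjusted p = 1.9e-04).

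Of 27 other sensors and double-stranded RNA-binding proteins, 25 were tested, and 3 rose with IFN-γ, 1 with CX3CL1, 4 with both against no treatment, 3 with both against CX3CL1 and none with both against IFN-γ. None fell, and the median was 0.03 with IFN-γ and 0.04 with CX3CL1. IFI204, a DNA sensor of the p200 family, rose with IFN-γ (2.14, adjusted p = 7.3e-05) and with CX3CL1 (1.59, adjusted p = 0.00262). SAMHD1, which depletes deoxynucleotides, and ZNFX1, a helicase that binds viral RNA, rose with IFN-γ by 1.21 (adjusted p = 3.8e-04) and 1.79 (adjusted p = 4.3e-04). TMEM173, the gene of the adaptor STING, rose with both agents against no treatment by 0.58 (adjusted p = 0.02). It was not called with IFN-γ alone (0.49, adjusted p = 0.0595), with CX3CL1 alone (0.07) or with both against IFN-γ (0.09, adjusted p = 0.975).

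Around EIF2AK2, 8 of 9 eIF2α kinase and stress response genes were tested. With IFN-γ 2 rose, DDIT3, a transcription factor of the stress response, by 1.40 (adjusted p = 0.00187), and PPP1R15A, which recruits the phosphatase of eIF2α, by 0.97 (adjusted p = 0.0228). None rose with CX3CL1, 1 (DDIT3) rose with both against CX3CL1 and 2 with both against no treatment, none was called with both against IFN-γ, and none fell. Around ZBP1, 4 of 5 cell death partners were tested, and MLKL, the executioner of necroptosis, rose with IFN-γ from 104 ± 9.33 to 223 ± 31.1 TPM (1.08, adjusted p = 7.1e-05). It was also the 1 gene of that list called with both agents, against CX3CL1 (0.80, adjusted p = 0.00209) and against no treatment (1.26, adjusted p = 1.3e-05), and none was called with CX3CL1 or with both against IFN-γ. RIPK3, the kinase between ZBP1 and MLKL, was listed at 0 in all 12 libraries.

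Type I and III interferon genes, the output of the RIG-I-like receptor pathway, were at or near 0. Of 20 such genes, 16 were listed at 0 in every library, and IFNB1 was the 1 gene that passed the filter. IFNB1 measured 0.106, 0.0720 and 0 TPM untreated, 0.199, 0 and 0.506 TPM with CX3CL1, 0.568, 0.941 and 0.930 TPM with IFN-γ, and 0.416, 0.373 and 0.930 TPM with both. All libraries with IFN-γ were above the untreated ones, while the CX3CL1 group overlapped them. In limma, IFNB1 was called higher with IFN-γ (log2 fold change 0.77, adjusted p = 0.0116) and with both (0.55, adjusted p = 0.0471) and not with CX3CL1 (0.20, adjusted p = 1). Its mean was 0.0593 TPM untreated and 0.235 TPM with CX3CL1, against 0.813 TPM with IFN-γ and 0.573 TPM with both. IFNB1 thus passed the filter mainly through the groups in which it was called, and these calls are description only. At under 1 TPM these are small amounts, and the reads behind them are unknown.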

How the data were processed

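RNA from 12 CT26 cultures was sequenced as strand-specific mRNA libraries. The authors aligned reads to mm10 with STAR 2.7.3a in the VIPER pipeline and tested counts with DESeq2 1.22.1 (versions from the submitters' processing notes). The values deposited by the authors are TPM per gene symbol, adding up to 1000000 in each library; how TPM were computed, the annotation and the handling of reads shared between genes are not given in the sources used here. DESeq2 was not repeated because TPM are not counts. The paper's results also name TNF-α beside IFN-γ, as do its methods for flow cytometry and real-time PCR. No label does, and neither does the legend of the heatmap of these groups.

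Of 23636 symbols, 26 had been turned into dates and 2 names occurred more than once. Each library held 10613 to 10824 symbols at 1 TPM or more. TPM carry no depth, so no counting interval was computed. No 2 libraries held identical values.

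In R 4.3.3, limma 3.58.1 (lmFit, eBayes with an intensity trend) was fitted to log2(TPM + 1) in genes averaging 0.2 TPM or more, with all 12 libraries and no block, and Benjamini-Hochberg adjustment was made comparison by comparison. The fit was tested on simulated data for CX3CL1 against no treatment only, with libraries drawn independently of each other. The simulation did not cover the other comparisons, the interaction or deviations shared between same-numbered libraries. Tables were made with pandas 2.3.3 and numpy 2.4.6, and positions came from GENCODE M21. The alternatives tried were the replicate number as a block, leaving out each library, median-ratio scaling or quantile normalization of the columns, a filter at 1 TPM or none, a pseudocount of 0.1, no trend, and a fit to the compared libraries alone.

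The 8 members and all lists were chosen with earlier results of these data known. All 8 members are named; from each list, up to 4 called genes with the largest change are named, plus IFNB1; and the 2 genes most like each member, of which 1 gene is not reported here. RIPK3, KRT18, KRT20 and VIM were named after their values were seen.

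Replicate numbers in the labels recur in every group. Deviations from group means correlated between same-numbered libraries above 0.1 in every pair for no treatment and IFN-γ (lowest 0.220), CX3CL1 and IFN-γ (0.226), CX3CL1 and CX3CL1+IFN-γ (0.351), and IFN-γ and CX3CL1+IFN-γ (0.630), so the numbers were taken to pair these groups. The pairing rests on these correlations over all genes tested, since what a number shares is not given in the sources used here. The 8 genes themselves did not follow it between no treatment and IFN-γ. Replicate 1 was the highest untreated library for all 8 genes but the lowest IFN-γ library for 6. Whether a block on the number suits these genes was not tested.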

Additional observations from a re-analysis of the deposited data

How the results depend on the processing

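Over all alternatives and left-out libraries, 7 of the 8 genes stayed called with IFN-γ, with CX3CL1 and with both against no treatment, and 0 with both against IFN-γ. With both against CX3CL1 the main count of 5 became 2 without a filter, 2 with median-ratio scaling, 3 with the compared libraries alone, 3 without the trend, and 1 to 5 when a library was left out. The cause was not tested. The interaction count of 0 became 0 to 2 when a library was left out.

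The replicate block changed no call of the 8 genes with IFN-γ, with CX3CL1 or with both against no treatment or against IFN-γ. In the interaction, where pairing was not shown for every group (lowest correlation 0.005 for no treatment and CX3CL1 and 0.032 for no treatment and CX3CL1+IFN-γ, with 4 of 6 libraries closest to their own number), the block called 3: DDX58 (adjusted p = 0.0189), ZBP1 (adjusted p = 0.0215) and ADAR (adjusted p = 0.0452), where it called 49 of all genes tested negative (0.413%) and 3 positive.

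Estimates that changed sign were all uncalled and arose from leaving out 1 library. With IFN-γ, MAVS ran from -0.01 to 0.22. With both against IFN-γ, DHX58 ran from -0.07 to 0.41, ADAR from -0.05 to 0.11 and DDX60 from -0.00 to 0.35. MAVS ran from -0.11 to 0.03 with both against no treatment, and from -0.13 to 0.10 in the interaction.

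Over all genes, the 702 higher with IFN-γ became 1353 with the block and 423 to 997 when a library was left out. The 212 higher with CX3CL1 became 347 with the block, and 144 to 230. The 41 higher with both against IFN-γ became 89, and 15 to 52. The 447 higher with both against CX3CL1 became 1035, and 221 to 511. The 975 higher with both against no treatment became 1578, and 688 to 1228. In the interaction, leaving out a library gave 0 to 11 genes called negative and 0 to 1 positive. Neighbouring genes in the order of levels were separated at 12 of 28 steps, and at 12 to 16 under the alternatives. Reads are unknown for every gene, so no depth limit could be set.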
